A study of Naumovozyma castellii with 4 samples.

Results

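The genes described here are the 150 least expressed among 5031 unique genes of the budding yeast Saccharomyces castellii, of 5688 genes measured on 55-base probes, 2 probes for each gene. A gene was taken as unique when both of its probes were well above background in the genomic DNA channel on all 4 arrays, its name did not end in d, it was not alone on its contig, and no stretch of 25 bases in either probe recurred in a probe of any other gene. The level of a gene is the log2 ratio of its RNA signal to its genomic DNA signal, each after subtraction of the local background, averaged over its probes and given relative to the median of all genes on the same array. The 150 unique genes with the lowest mean level over the 4 arrays were taken. These levels chose the genes, so they are given as a description and with no test.

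The series held 4 arrays of 1 group, replicates 1 to 4, with no second condition. Each array compared RNA of strain NRRL Y-12630, from 450-ml cultures in mid-log phase in rich medium at 30 °C and labelled with Cy3, with genomic DNA of the same strain labelled with Cy5. The dyes were never exchanged, and all 4 arrays lay on 1 slide, so a low ratio was always a low Cy3 signal relative to Cy5. The methods of the study call its RNA samples biological replicates, while the labels of these 4 arrays do not name separate cultures, and SDs and p-values measure the spread between these arrays. The RNA was drawn from whole cultures, and a transcript present in few cells could not be told apart from one present at a low level in all cells. No gene probe was saturated, and there were 77 negative control spots on each array. The brightest of these spots were brighter in RNA on replicate 3 than on the other arrays, while their median there (68.5) was close to that on replicate 2 (67).

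S. castellii is related to baker's yeast and descends from the same ancient duplication of the whole genome, but unlike baker's yeast it has kept the genes for RNA interference. In baker's yeast, growth in rich medium leaves many genes nearly silent, among them genes of sporulation, genes for the use of carbon and nitrogen sources that the medium makes unnecessary, and gene families beside the chromosome ends that are kept in a repressed state. Hybridisation of genomic DNA to the same spots gives each probe its own measure of how well it hybridises and of how many copies of its target the genome holds, so that the ratio to DNA corrects for poor probes and for repeated genes. None of the 5688 identifiers matched the RefSeq gene table of the species (5867 genes, assembly ASM23734v1), so the genes are named by their identifiers, which give the number of a contig and, after the point, the number of the gene on it. What the proteins do is therefore not given.

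The 150 genes had a median level of -3.32 on the log2 scale and ran from -5.66 to -2.68, while the other 4881 unique genes had a median level of 0.05. Their median level was -3.54 on replicate 1, -3.44 on replicate 2, -3.20 on replicate 3 and -3.38 on replicate 4. Every one of the 150 genes lay over 4-fold below the median gene on each of the 4 arrays. Over 8-fold below on each array were 85 genes, over 16-fold 20 genes and over 32-fold 3 genes. The levels spread most at the lower end. The lowest 50 genes had a median level of -4.25, the middle 50 a median of -3.32 and the upper 50 a median of -2.91. The size of these levels depended on the normalisation: a loess correction within each array, which fits the ratio to the brightness of the spot, put the median of the 150 genes at -1.05 and left 46 of them among the 150 lowest, and the processed signals of the scanner software gave -2.35 and 106.

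**Figure D1:**
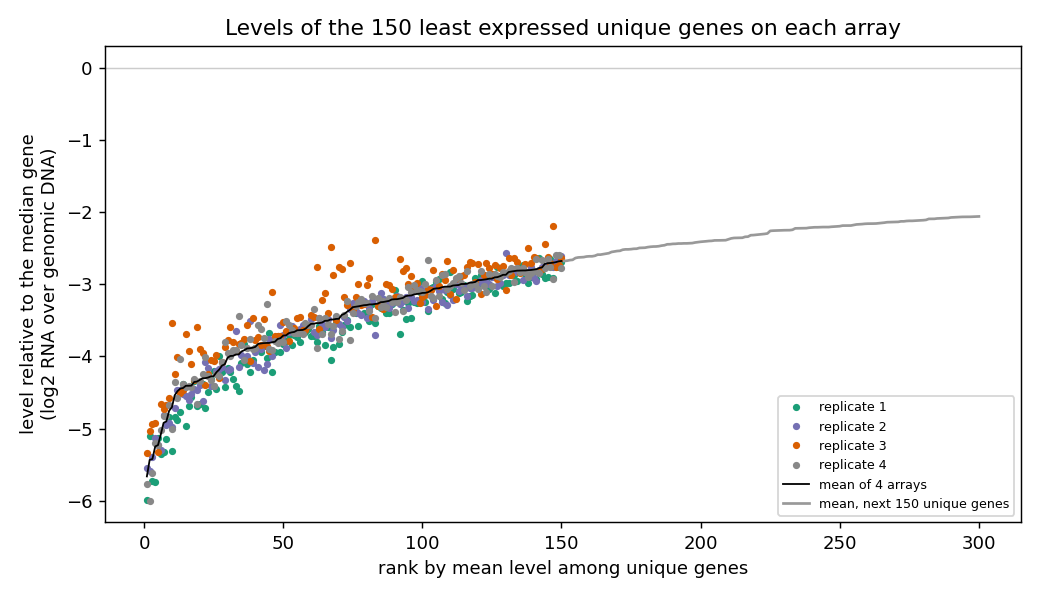
Level on each array (log2 of RNA over genomic DNA, relative to the median gene at 0) against the rank of the gene by its mean level, for the 150 genes (coloured points, 1 colour for each replicate, black line for the mean of 4 arrays) and for the next 150 unique genes (grey line, mean only). The lower end falls steeply to -5.66, the line passes the limit of 150 genes at -2.68 with no step, and replicate 3 holds the highest of the 4 levels in 89 of the 150 genes.

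There was no gap at the limit of 150 genes. The last genes inside it were Scas_606.11 at -2.69, Scas_721.134 at -2.68 and Scas_610.15 at -2.68, and the first genes outside were Scas_538.6 at -2.68, Scas_721.31 at -2.67 and Scas_515.6 at -2.67. Scas_610.15 and Scas_538.6 differed by less than the SD of either between arrays (0.07 and 0.04). The next 150 unique genes reached up to -2.06, with a median of -2.26. The number of genes is thus a choice and does not mark a class of its own.

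In the medians of the 150 genes, the low ratios lay in the RNA channel. The RNA signal was part of the ratio that chose the genes, so these values are a description. Taken as the geometric mean over probes and arrays, the median RNA signal of a gene was 237 intensity units in the 150 genes, against 2366 in the other unique genes, a log2 difference of -3.32. The median DNA signal was 11660 in the 150 genes and 11519 in the other unique genes, a log2 difference of 0.02, and 78 of the 150 genes lay above the median DNA signal of all unique genes. Ranked by RNA signal alone among the unique genes, the 150 genes had a median percentile of 1.58 and the highest stood at percentile 9.38. Of the 150 genes, 121 were also among the 150 unique genes of lowest RNA signal.

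**Figure D2:**
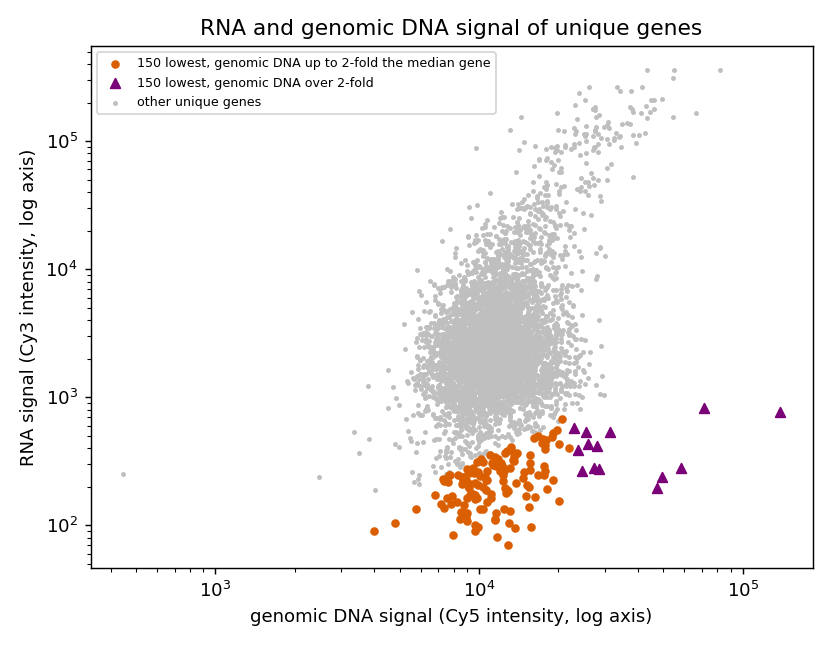
RNA signal (Cy3 intensity) against genomic DNA signal (Cy5 intensity) of each unique gene, both as the geometric mean of 2 probes and 4 arrays on log axes, with the 150 genes in colour (orange points, or purple triangles where DNA was over 2-fold that of the median gene) and the other 4881 in grey. The 150 genes, chosen for low ratios, lie at the lower edge of the cloud, with medians of 237 and 2366 for RNA. The DNA signal runs from 3980 to 138170 in the 150 genes and from 447 to 81898 in the rest. Of the 150 genes 14, the triangles, lie to the right of the others.

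The signal of the 150 genes stood close above that of the negative control spots. Over the 300 probes of these genes, the median RNA signal was 234, 221, 220 and 235 on replicates 1 to 4, and that of the negative control spots was 49.5, 67, 68.5 and 63. The 150 genes were thus 4.73, 3.30, 3.22 and 3.72 times as bright as the negative controls, and the 95th percentile of the negative controls was passed by 291, 276, 167 and 282 of the 300 probes. Replicate 3 stood apart in its controls: their 95th percentile was 208.7 there, against 73.4, 105.3 and 100.1 on replicates 1, 2 and 4. The scanner software marked the RNA of both probes as well above background for 123 of the 150 genes (82.0%) on replicate 1, 98 (65.3%) on replicate 2, 17 (11.3%) on replicate 3 and 118 (78.7%) on replicate 4. For the other unique genes these shares were 99.9%, 99.9%, 98.9% and 99.96%.

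**Figure D3:**
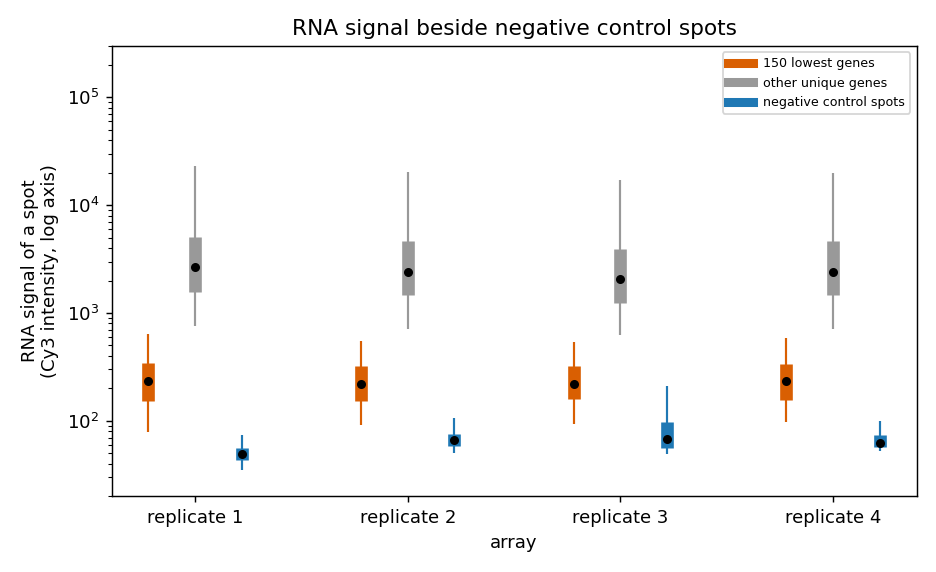
RNA signal of single spots (Cy3 intensity after background subtraction, log axis) on each replicate for the 150 genes (orange), the other unique genes (grey) and the negative control spots (blue), with a point at the median, thick bars over the quartiles and thin lines over the 5th to 95th percentiles. The median of the 150 genes lies between 220 and 235 on all arrays, and the controls come closest to it on replicate 3, where their 95th percentile is 208.7.

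Counted over arrays, both probes were well above background on all 4 arrays in 17 of the 150 genes, on 3 arrays in 79, on 2 in 18, on 1 in 15 and on none in 21. All of the 79 genes that passed on 3 arrays failed on replicate 3, so that 96 of the 150 genes passed on all arrays without it. In 9 of the 150 genes neither probe was well above background on any array, which held for 0 of the other unique genes by the flag of the scanner software. For these 9 genes the level is only a bound. Signals under the lowest one well above background on their array (81, 144, 257 and 96 intensity units on replicates 1 to 4) were set to it. In the mean over probes and arrays, the RNA of these genes then lay at least 6.29-fold to at least 20.7-fold below the median gene. Such a bound need not hold on a single array. When both probes had to be well above background in RNA too, 17 of the 150 genes were left, with a median level of -3.06.

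Of the 10 lowest genes, 4 had an unusually bright DNA signal. Scas_558.5, the lowest gene of all, had levels of -5.99, -5.55, -5.34 and -5.77 on replicates 1 to 4 (mean -5.66 ± 0.28, SD, n = 4). Scas_657.21d1 had -5.11, -5.59, -5.04 and -6.00 (mean -5.43 ± 0.45). Scas_476.5 had -5.73, -5.39, -4.94 and -5.62 (mean -5.42 ± 0.35). Each of these 3 genes was at its highest on replicate 3, and their means differed by less than the SD of any of them. The fourth, Scas_642.23, was far steadier, with -5.14, -5.22, -5.33 and -5.23 (mean -5.23 ± 0.08). It also had 1 of the brightest RNA signals of the 150 genes, 846, 723, 611 and 928 intensity units on replicates 1 to 4, set against a mean DNA signal of 138170 that was 12-fold that of the median gene.

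The other 6 of the 10 lowest genes had a DNA signal under 2-fold that of the median gene and a dim RNA signal. Scas_632.1 had levels of -5.74, -5.14, -4.92 and -5.19, with RNA signals of 53.9, 79.8, 75.9 and 76.7 intensity units on replicates 1 to 4. Their mean of 70.7 was the lowest of the 150 genes, though Scas_663.29 was dimmer on replicate 3, and none was well above background, so that Scas_632.1 lay at least 20.6-fold below the median gene. Scas_635.4 had levels of -5.32, -4.81, -4.73 and -4.83 and an RNA signal of 80.3, the second dimmest, and lay at least 18.6-fold below. The third dimmest gene, Scas_663.29 at a mean level of -4.30, had an RNA signal of 83.8 and lay at least 12.5-fold below. Scas_661.9 (mean level -5.08 ± 0.32), Scas_715.11 (-4.90 ± 0.20) and Scas_706.45 (-4.75 ± 0.16) had mean RNA signals of 96.7, 95.3 and 155. In these 3 genes 1 probe at least was well above background on some array.

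Scas_630.24 closed the lowest 10 and varied most of all 150 genes, with levels of -5.31, -4.97, -3.54 and -5.00 (mean -4.70 ± 0.79, SD, n = 4). Its RNA signal was 196 on replicate 3 and 71.0, 93.7 and 88.0 on replicates 1, 2 and 4, none of them well above background. In the mean over the arrays, though not on replicate 3, it thus lay at least 20.7-fold below the median gene. Scas_613.18 came next in spread, with -4.05, -3.74, -2.48 and -3.68 (SD 0.69), and then Scas_665.6 with -3.53, -3.71, -2.39 and -3.46 (SD 0.60). In each of these 3 genes replicate 3 alone was high and the other arrays lay close together. Of the 14 genes whose SD was over 0.4, 13 were at their highest on replicate 3. Without replicate 3 the SDs of Scas_630.24, Scas_613.18 and Scas_665.6 were 0.19, 0.20 and 0.13. That array also had the highest 95th percentile of the negative controls, and the part this played in the levels was not tested.

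Over all 150 genes the SD between arrays had a median of 0.15 and ran from 0.03 to 0.79, against a median of 0.09 in the other unique genes. It was larger at the lower end, with a median of 0.26 in the lowest 50 genes and 0.13 in both the middle 50 and the upper 50. Without replicate 3 the median SD was 0.11 in the 150 genes, with 0.17, 0.10 and 0.09 from the lowest to the upper 50, and 0.06 in the other unique genes. Replicate 1 held the lowest of the 4 levels in 81 genes. Across the 150 genes, Pearson's r of the levels was 0.86 to 0.88 between replicate 3 and each other array and 0.95 to 0.96 between the other arrays, and in the other unique genes every pair reached 0.99. The points of these correlations are genes of 1 array set, with 1 slide and 1 DNA reference in common, and not replicates of each other.

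The choice was also made again with each array left out. The arrays share probes, slide and DNA reference, so that the values are a description and not an independent check. When the 150 lowest genes were chosen on 3 arrays, 146 to 148 of the 150 genes were chosen again. On the array left out, the genes so chosen had a median level of -3.54 for replicate 1, -3.44 for replicate 2, -3.20 for replicate 3 and -3.38 for replicate 4. All 150 were over 4-fold below the median gene on each array left out, and the highest level among them was -2.02, on replicate 3. Between 139 and 143 of them were also among the 150 lowest of the array left out, and all 150 were among its 300 lowest.

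The mean of the 2 probes chose the genes, but the difference between them did not. In 102 of the 150 genes the probes lay within 1.5-fold of each other, against 104 of the next 150 and 3915 of the 4881 other unique genes. Both probes were over 4-fold below the median gene in 147 of the 150 genes and in 100 of the next 150. The low mean that chose the genes makes a low level at both probes likely, so the count of 147 is a description. The probes differed by over 2-fold in 6 of the 150 genes (4.0%) by limma's test against that limit (Benjamini-Hochberg adjusted p under 0.05 over all genes), against a background of 1.21% over all 5688 genes and 0.799% over the other unique genes. The count was 13 under the normexp background correction and 13 under the loess correction, with 6.7% and 7.31% of all genes called. By the same limma test the count was 0 in the lowest 50 genes, 2 in the middle 50 and 4 in the upper 50 (at an unadjusted p under 0.05 it was 0, 3 and 9), and 5 of the next 150 unique genes (3.33%) were called. The median size of the difference was 0.34 on the log2 scale in the 150 genes and 0.29 in the other unique genes.

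The largest difference was in Scas_687.2, whose probes had mean levels of -4.38 and -1.87, a difference of -2.51 ± 0.14 (SD, n = 4, limma adjusted p = 0.000293). Scas_508.3 had probes at -1.83 and -3.78 (adjusted p = 0.00253) and Scas_632.25 had probes at -3.87 and -2.01 (adjusted p = 0.00281). Scas_655.12, Scas_670.1 and Scas_692.12 made up the 6, with adjusted p between 0.00394 and 0.0128. In each of the 6 genes the mean RNA signal was above the median of the 150 genes, between 279.6 and 501 intensity units, and the higher probe lay between -2.65 and -1.83, over 2-fold below the median gene. The probes of these genes covered different stretches, as they did in 112 of the 150 genes, of which these 6 were 5.36%, while 36 of 4112 other unique genes with separate probes (0.875%) were called. In the remaining 38 genes the probes overlapped by 15 bases or more and were not independent of each other.

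**Figure D4:**
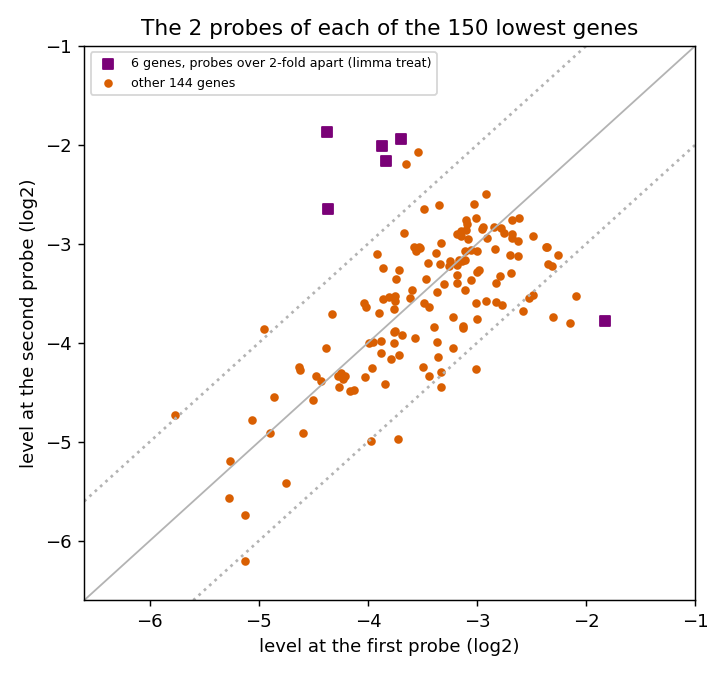
Mean level of the first probe against that of the second probe (log2 of RNA over genomic DNA relative to the median gene, mean of 4 arrays) for each of the 150 genes. Purple squares are the 6 genes whose probes differed by over 2-fold by limma's test, the full line marks equal levels and the dotted lines a 2-fold difference. The farthest from the full line is Scas_687.2, at -4.38 and -1.87.

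Of the 150 genes, 14 (9.33%) had more than 2-fold the DNA signal of the median gene, against 146 of the other unique genes (2.99%). Of the next 150 unique genes, 9 had such a signal, and of the 150 most highly expressed 77 (51.3%), which were more than 50% of the 146. The DNA signal was part of the ratio that chose the genes, so this count is a description. Apart from leaving out genes alone on their contig, the choice did not use the place on the contig. Of these 14 genes, 8 (57.1%) carried the lowest or the highest number on their contig. It was 19 of the 146 bright genes elsewhere (13.0%) and 7 of the 77 among the highest 150 (9.09%). Over 4-fold that of the median gene were 5 of the 150 genes, Scas_642.23 (12-fold), Scas_553.1 (6.23-fold), Scas_657.21d1 (5.09-fold), Scas_476.5 (4.29-fold) and Scas_558.5 (4.11-fold). All 5 were at the end of a contig by their number, on contigs of 26, 3, 25, 4 and 8 genes in this order. In 4 of the 5 the probes overlapped. A small contig has a larger share of its genes at an end, and the counts were not corrected for contig size. Whether the end of a contig lies near the end of a chromosome is not given. Scas_553.1 had the brightest RNA signal of the 150 genes, with a mean of 821 and a level of -4.18 ± 0.14 (SD, n = 4).

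The other unique genes held 7 genes with DNA over 4-fold that of the median gene. None of these 7 was at the end of a contig, and their levels ran from 3.57 to 4.97, among the highest measured. In the 5 low genes the RNA signal ran from 194 to 821, at percentiles 1.05 to 9.38 of all unique genes. Their RNA was thus low by itself, but less so than the ratio. Without regard to DNA, 25 of the 150 genes (16.7%) were at the end of a contig, against 537 of the other unique genes (11%). Of the next 150 unique genes 17 (11.3%) were at an end, and of all 5688 genes 876 (15.4%). The count over all genes includes genes alone on their contig, which are at an end by definition. Within the 150 genes it was 13 of the lowest 50 (26.0%) and 6 in each of the middle 50 and the upper 50 (12%). Among the 136 of the 150 genes whose DNA was not over 2-fold, 17 were at an end (12.5%), against 10.9% of the other unique genes with such DNA.

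The 150 genes were scattered over 99 of the 503 contigs. On 65 contigs there was 1 of them, on 34 there were 2 or more, and the most was 5, on contig 630 with 25 genes and on contig 701 with 49 genes. Among them was 1 run of 3 neighbouring genes, Scas_630.23 (mean level -3.35 ± 0.47, SD, n = 4), Scas_630.24 (-4.70 ± 0.79) and Scas_630.25 (-2.81 ± 0.09), and 1 pair, Scas_702.1 (-2.87) and Scas_702.2 (-3.41). Scas_630.22, beside the run, had levels of 1.09, 1.17, 1.30 and 1.28, over 2-fold above the median gene (limma adjusted p = 0.00415), and the gene after it, Scas_630.21, was again 1 of the 150 at -3.19. Scas_702.3, beside the pair, was at a mean level of 1.74 (limma adjusted p = 6.19e-06).

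Levels of genes beside the 150 were not used in the choice. Of the 150 genes, 144 had plain numbers, and these had 256 neighbours with the next lower or higher number on the same contig. Of these neighbours 5 (1.95%) were themselves among the 150, where 2.70% of all genes with plain numbers were, and the other 251 had a median level of -0.04 (quartiles -0.775 and 0.779). Over 2-fold below the median gene by limma's test were 36 of the 251 (14.3%), against a background of 14.6% over all 5182 genes with plain numbers outside the 150, whose median level was 0.10. The share among the neighbours was near the background and is no result about them. At distances of 2 to 10 genes the share was at most 18.4%, and at a distance of 10 it was 16 of 158 genes.

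The probe sequences gave features that the choice did not use beyond the limit on shared bases. The median GC content of the probes was 40.0% in the 150 genes and 39.1% in the other unique genes. At the third position of codons it was 38.2% in the 150 genes and 35.3% in the other unique genes. Over whole probes the mean share of C was 18.5% against 17.0%, and that of A 32.3% against 33.7%. The longest stretch of bases that a probe of the 150 genes shared with a probe of another gene was 21, and 3 of the 150 genes (2.0%) shared 18 or more, against 1.56% of the other unique genes. A reading frame free of stop codons was found in 94.0% of the probes of the 150 genes and 92.4% of the probes of the other unique genes. In the reverse complement the shares were 86.3% and 83.2%, so such a frame is not particular to the strand given. These values lay close together.

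Codon choice in yeast follows expression, with the most abundant proteins written in a small set of codons that match the most abundant tRNAs. The share of 23 such codons, preferred in highly expressed genes of baker's yeast, could be read for 112 of the 150 genes. It was read from the probes and not from whole genes, and only from probes with a single open reading frame. Its median was 45.0% (quartiles 36.6% and 52.9%) in the 150 genes, 43.8% in the next 150 unique genes, 87.5% (quartiles 76.5% and 93.9%) in the 150 most highly expressed unique genes and 47.1% in all unique genes outside the 150. Over the 10 equal classes of unique genes by level, the medians were 43.9%, 43.8%, 44.1%, 44.3%, 45.3%, 46.9%, 47.1%, 50.0%, 54.2% and 68.8% from the lowest to the highest. The 150 genes thus lay on a flat lower part of this relation, within a few percentage points of genes of intermediate level. Over 50% of the codons read were preferred ones in 34 of the 112 genes (30.4%), against 42.3% of the other unique genes and 96.6% of the highest 150. Among the next 150 unique genes it was 29 of the 109 genes that could be read (26.6%), so the low share was not particular to the 150.

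**Figure D5:**
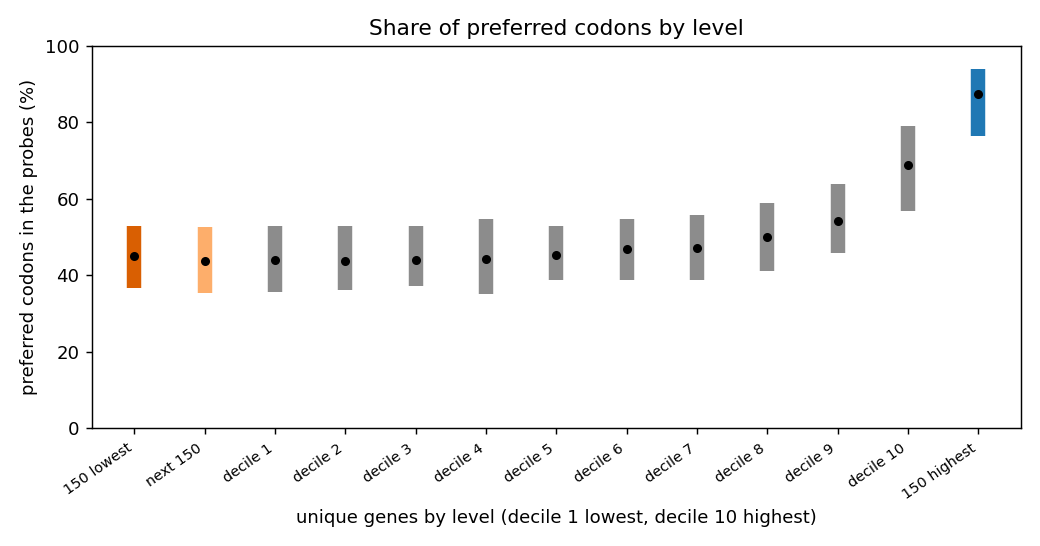
Share of codons in the probes that are preferred in highly expressed genes of baker's yeast (percent), as the median (point) and quartiles (bar), for the 150 lowest unique genes (orange), the next 150 (light orange), 10 equal classes of all unique genes by level (grey, lowest first) and the 150 highest (blue). The medians stay between 43.8% and 47.1% over the lower 7 classes and reach 68.8% in the highest class and 87.5% in the 150 highest genes.

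Some probes ended in a stop codon, in a frame that was otherwise open over the probe. Whether they lay at the end of the coding sequence was not checked against a gene sequence. They made up 49 of the 300 probes of the 150 genes (16.3%), against 16.2% in the other unique genes. The probe that ended in a stop codon was higher than the other probe of the same gene in 29 of 49 cases (59.2%). The median difference was 0.07 on the log2 scale. In the other unique genes it was higher in 1078 of 1555 cases (69.3%), with a median of 0.19. Among the next 150 unique genes that probe was higher in 21 of 33 cases (63.6%), with a median difference of 0.066. Among the 150 most highly expressed it was higher in 24 of 38 cases (63.2%), with a median of 0.076. The median difference was thus in the same direction in all of these groups, and its small size was not particular to the 150 genes. It was not tested.

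A small class of identifiers, 26 in all, ends in d and a digit, and what this suffix stands for is not given in the sources used here. Of the 24 that were unique genes, 6 were among the 150 (25%), where 2.98% of all unique genes were. These were Scas_657.21d1, described above, Scas_710.45d1 at a mean level of -4.54, Scas_629.4d1 at -3.97, Scas_668.18d1 at -3.68, Scas_655.0d1 at -3.62 and Scas_629.4d2 at -3.48. The 24 genes had a median level of -1.57 on the log2 scale. Names that end in d alone, which were left out of the unique genes, had a median level of -0.91. Without the names in d and a digit, 144 of the 150 genes were left and 6 others took their places.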

How the data were processed

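RNA and genomic DNA of S. castellii were hybridised to 4 Agilent arrays of 2 colours with 2 probes for each of 5688 genes. Intensity values were deposited by the authors as scanner output of Feature Extraction 10.1.1.1, with median signals, local backgrounds and flags of each spot, not normalised between arrays. A table of log2 values was also deposited by the authors; all 5688 of its rows were matched within 0.0001 to ratios of median signals with no background taken off, averaged over probes before log2 was taken, and it served as an alternative. Here each spot's local background (median) was first taken off its signal in both channels, RNA signals under 1 were set to 1, and log2 of RNA over DNA was averaged over probes and centred on the median of all genes of the array. Without this subtraction the median level of the 150 genes was -3.20 in place of -3.32.

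The members and lists were chosen with earlier results of these data known. Tests used limma 3.58.1 in R 4.3.3 (lmFit and treat against a 2-fold limit, two-sided, Benjamini-Hochberg adjusted p under 0.05 over all genes), fitted over all 4 arrays. On simulated data of 5688 genes, the test of levels recovered 98 of 100 genes shifted by 2 and 100 of 100 shifted by 3 on the log2 scale. The test of probe differences recovered 94 and 100 of 100, and 0 other genes were called. The other genes were simulated well inside the 2-fold limit, so the 0 says little about false calls near it. SDs were drawn over all genes without regard to level, so the larger SDs of the lowest genes were not modelled. Counts and figures used Python 3.11.15, numpy 2.4.6, pandas 2.3.3 and matplotlib 3.10.9.

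Genes named are the 10 lowest, the 3 on each side of the limit of 150, the 3 each with the largest SD, the largest probe difference, the brightest and the dimmest RNA signal, and runs of 3 or more neighbours. Others named (the 6 probe calls, genes of bright DNA, the pair on contig 702, names in d and a digit) were chosen after their values were seen. Lists of genes by function were not used here, because no identifier matched a named gene. Alternatives covered background correction, normalisation, filters, probe choice and each array left out.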

Additional observations from a re-analysis of the deposited data

Results flagged for a closer look

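Of 29 values screened, 1 was set apart by a single array. The level of Scas_635.4 was -5.3181 on replicate 1, while the other arrays lay between -4.83 and -4.73, so that the gap was 0.834 of the whole range of the 4 values. Chance alone sets apart about 1 in 20 such groups. Over all 150 genes, 7 (4.67%) stood apart in this way, 3 of them through replicate 1, 3 through replicate 3 and 1 through replicate 4, against 5.84% of all unique genes. On none of the 4 arrays was the RNA of a probe of Scas_635.4 well above background.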

How the results depend on the processing

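The median level of the 150 genes (-3.32) moved to -2.35 with the processed signals of the scanner software, to -1.05 with loess within arrays, to -3.06 over the 17 genes left when RNA had to be well above background, and to -3.81 with the negative control signal subtracted, an alternative added after the data were seen. Of the 150 genes, 46 stayed among the 150 lowest with loess and 17 when RNA had to be well above background. It was 106 with the processed signals, 118 with normexp, 121 by RNA signal alone and 136 to 150 with the other settings. Probe differences over 2-fold (6) were called in 13 genes with normexp, in 13 with loess and in 0 of the 17 genes with RNA well above background by limma (2 at an unadjusted p under 0.05), where 0.792% of all genes were called. Neighbours over 2-fold below the median gene (36) were 23 with the processed signals and 21 with loess. Over all genes, 1063 were over 2-fold below, 664 with the processed signals, 509 with loess, and 2647 were below by limma's eBayes with no minimum fold. The cause of these shifts was not tested. Leaving out 1 array at a time gave median levels of -3.41 to -3.29, 146 to 148 genes among the 150 lowest, 5 to 8 genes with differing probes, 34 to 38 neighbours and 1021 to 1077 genes over 2-fold below. Levels of the 22 genes named by rule stayed below the median gene in all 286 recomputed values, but 99 of these values moved by at least the gene's SD between arrays. With loess 21 of the 22 moved, and their levels ran from -6.58 to -0.06, the highest close to the median gene. The genes were chosen for low levels, so the kept sign is a description. The median share of preferred codons ran from 42.6% to 47.1%. Probe differences were not computed for the deposited log2 values and for a single probe of each gene. Matching to reference proteins was not run. RNA signal over background limits the lowest ratios: 9 of the 150 genes have only a bound. No paired analysis was possible because the series has 1 group.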
